A study of Mus musculus with 11 samples.

Results

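The Hist4h4, H2afx and Hist3 loci are 3 small histone regions of the mouse genome outside the large Hist1 and Hist2 clusters, and 398 of 831994 distinct HIV integration sites lay in them. Sites were chosen by position alone: a site, which is a chromosome, a position and a strand and counts once per library, belonged if it fell in a window reaching 5 kb beyond the histone genes of the locus. On the mm9 assembly the Hist4h4 window is chr6:136747589-136757900 (10312 bases, 78 sites), the H2afx window is chr9:44137798-44149154 (11357 bases, 120 sites) and the Hist3 window is chr11:58757413-58775176 (17764 bases, 200 sites). Together the windows held 0.0478% of all sites on 0.00154% of the mapped bases.

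Integration was mapped in embryonic fibroblasts (MEF) of strain C57BL/6 with the genotype LEDGF-/-, which the cells of every group carried. Each culture received a plasmid for 1 protein fused to LEDGF-IBD, the part of LEDGF that binds the viral integrase, was infected with HIV 24 hours later and then grew for 3 days. NELF had 4 libraries (NELFA, NELFB, NELFCD, NELFE), Integrator had 6 (INTS9, INTS11 and the SOSS subunits INTS3, NABP1, NABP2, INIP) and SPT5 had 1, and the question was where these proteins meet chromatin. With 1 library per protein, the subunits of a family are used as its replicates. A p-value therefore sets the difference between families against the scatter of libraries of different subunits, which includes technical scatter. How much fusion protein each culture made is not given in the sources used here, integration without a fused protein was not analysed here, and positions in DNA cannot be checked against markers of fibroblasts. Libraries held 18753 (NELFE) to 197069 sites (INTS9), with a median of 41265. All 4 NELF libraries came from 1 flow cell that held no other library and SPT5 was alone on another, and a difference between families cannot be told apart from one between flow cells. The scatter within NELF holds no difference between flow cells.

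Replication-dependent histone genes are short and lack introns, and their transcripts end after a conserved stem-loop instead of a poly(A) tail. NELF acts with DSIF, of which SPT5 is the large subunit, to pause RNA polymerase II soon after it starts. Integrator cleaves nascent transcripts through INTS9 and INTS11, and SOSS joins it through INTS3. Hist4h4 codes for histone H4, Hist3h2a for H2A and Hist3h2ba for H2B, while H2afx codes for the variant H2A.X, which is phosphorylated at DNA breaks. H2afx transcripts can end at the stem-loop or, farther on, with a poly(A) tail.

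The stem-loops of the 4 genes are shown because they mark where the processed transcript ends, and site positions are given around them. They were found by the histone stem-loop motif, with both bases of 1 stem pair and the last base of the loop left free, on the gene's strand within 300 bases past the stop codon. The motif occurred there in 61 of 21903 protein-coding genes (0.279%) and in 56 of 64 Hist1 and Hist2 genes (87.5%). Capitals mark the match, read from mm9 at chr6:136752519-136752534 on the minus strand for Hist4h4 and, on the plus strand, at chr9:44143323-44143338 for H2afx, chr11:58762851-58762866 for Hist3h2ba and chr11:58768674-58768689 for Hist3h2a.
Hist4h4: acaaaGGCCCTTTTCAGGGCCcacaaagca
H2afx: acaaaGGCCCTTTTAAGGGCCaccacctcc
Hist3h2ba: ccaaaGGCTCTTTTCAGAGCCaccttccaa
Hist3h2a: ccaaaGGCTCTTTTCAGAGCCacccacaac
Both Hist3 genes carry the same stem and loop, while Hist4h4 and H2afx share another stem and differ from each other in the loop. The match began 55 bases past the stop codon in Hist4h4, 47 in H2afx, 29 in Hist3h2ba and 42 in Hist3h2a. H2afx is annotated for 816 bases beyond its stem-loop and Hist3h2a for 1487, while Hist4h4 is annotated only over its coding sequence of 312 bases, so its start here is the start codon.

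The bases before the transcription starts are shown because NELF sites were dense upstream of all 4 genes but nearly absent from these stretches. They are the 250 bases before the start in RefSeq (GRCm38.p6), at chr6:136804432-136804681 on the minus strand for Hist4h4, named H4f16 there, chr11:58948661-58948910 on the plus strand for Hist3h2ba (H2bu2) and chr11:58954435-58954684 on the plus strand for Hist3h2a (H2aw). Capitals mark the CCAAT box, the core TATAA of a TATA box and the octamer ATGCAAAT, each on either strand and overlapping no other.
Hist4h4: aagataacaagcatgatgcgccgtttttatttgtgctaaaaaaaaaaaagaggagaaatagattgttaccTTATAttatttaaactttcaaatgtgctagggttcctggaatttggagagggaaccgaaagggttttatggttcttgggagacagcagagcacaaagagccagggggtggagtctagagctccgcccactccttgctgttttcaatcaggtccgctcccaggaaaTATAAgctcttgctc
Hist3h2ba: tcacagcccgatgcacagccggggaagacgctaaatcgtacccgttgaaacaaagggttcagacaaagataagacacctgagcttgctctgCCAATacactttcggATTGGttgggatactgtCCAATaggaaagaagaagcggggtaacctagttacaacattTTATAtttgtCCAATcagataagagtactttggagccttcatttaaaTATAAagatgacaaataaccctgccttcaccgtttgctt
Hist3h2a: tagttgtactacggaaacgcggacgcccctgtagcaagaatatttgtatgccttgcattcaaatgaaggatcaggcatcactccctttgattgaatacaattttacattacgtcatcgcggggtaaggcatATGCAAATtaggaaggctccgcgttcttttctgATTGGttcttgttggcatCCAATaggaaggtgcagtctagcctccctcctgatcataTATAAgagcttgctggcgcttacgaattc
Hist3h2ba has 4 CCAAT and 2 TATAA matches, Hist3h2a has 2 CCAAT, 1 TATAA and 1 ATGCAAAT match, and Hist4h4 has 2 TATAA matches and neither of the others. CCAAT was present in 33.8% of 32851 RefSeq promoters of this length, TATAA in 22.8% and ATGCAAAT in 1.60%. Each stretch matched mm9 exactly once. The matching bases (chr6:136752953-136753202, chr11:58762163-58762412 and chr11:58767937-58768186) held 1 NELF, 1 Integrator and 2 SPT5 sites at Hist4h4, 0, 1 and 1 at Hist3h2ba, and 0, 1 and 0 at Hist3h2a.

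NELF sites were denser than Integrator sites at all 3 loci. Values are distinct sites per 100000 sites of a library, and each locus was compared in an exact two-sided permutation test over the 210 splits of 10 libraries into 4 and 6, on log2 of the value plus 1. No NELF library overlapped an Integrator library at any of the 3, as was the case for 3.36% of 11122 gene windows tested across the genome.

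At the Hist4h4 locus NELFA had 23.2 sites per 100000 (7 sites), NELFB 45.2 (14), NELFCD 21.8 (9) and NELFE 85.3 (16). INTS9 had 4.57 (9 sites), INTS3 3.11 (3), NABP1 3.18 (6) and NABP2 6.80 (6), while INTS11 and INIP had 0, which allows up to 8.84 and 12.04 by the limit of 3 counts and up to 10.9 and 14.8 by the 95% exact Poisson interval. SPT5 had 9.75 (8 sites; 95% exact Poisson interval 4.21 to 19.2). NELFE stood highest, at more than any other library, and the lowest NELF value was above the highest Integrator value. The mean was 43.9 ± 29.6 in NELF (SD, n = 4) and 2.94 ± 2.64 in Integrator (n = 6), a ratio of 14.9 and a log2 difference of 3.68 ± 0.69 (SE; exact p = 0.0048, the smallest that 210 splits give).

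The H2afx locus had even NELF values, of 39.9 sites per 100000 in NELFA (12 sites), 38.8 in NELFB (12), 38.8 in NELFCD (16) and 31.99 in NELFE (6). In the Integrator libraries INTS11 had 17.7 (6 sites), NABP1 13.8 (26), NABP2 10.2 (9), INTS3 7.27 (7), INIP 4.01 (1) and INTS9 2.54 (5). SPT5 had 24.4 (20 sites; interval 14.9 to 37.7), between the highest Integrator and the lowest NELF value. The groups lay apart here too, with NELF libraries close to each other. NELF averaged 37.3 ± 3.604 and Integrator 9.25 ± 5.81, a ratio of 4.04 and a log2 difference of 2.12 ± 0.38 (SE; exact permutation p = 0.0095). Around H2afx NELF sites were also frequent farther out: the 50 kb on each side held 0.213 to 0.775 sites per kb per 100000 in NELF libraries and 0.117 to 0.223 in Integrator libraries. Divided by the density in these flanks, the locus gave a log2 difference of 0.996 (exact permutation p = 0.0905), which did not pass.

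At the Hist3 locus NELFE had 117 sites per 100000 (22 sites), NELFB 100.1 (31), NELFA 86.4 (26) and NELFCD 60.6 (25). NABP1 had 19.6 (37 sites), INTS3 16.6 (16), NABP2 10.2 (9), INTS9 6.09 (12), INIP 4.01 (1) and INTS11 2.95 (1). SPT5 had 24.4 (20 sites; interval 14.9 to 37.7), as many sites as at H2afx. NELFCD, the lowest NELF library, stood well above NABP1, the highest Integrator library. NELF averaged 91.1 ± 24.0 and Integrator 9.92 ± 6.89, a ratio of 9.19 and a log2 difference of 3.30 ± 0.44 (SE; exact permutation p = 0.0048). With sites of the GAIIx instruments alone, a setting chosen after the data had been seen, the log2 difference was 3.55 at Hist4h4, 2.40 at H2afx and 4.31 at Hist3, and all 3 passed (exact permutation p = 0.0048, 0.0143 and 0.0095). NELF sites were more frequent than Integrator sites in the flanks of Hist3 as well, with 0.194 to 0.465 and 0 to 0.120 sites per kb per 100000, and divided by flank density the log2 difference was 1.59 (exact permutation p = 0.0238). The same division left 3.74 at Hist4h4 (exact permutation p = 0.0048). The intervals for single libraries hold only the error of counting, and INTS11 and INIP rest on 7 and 2 sites over the 3 loci together.

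**Figure D1:**
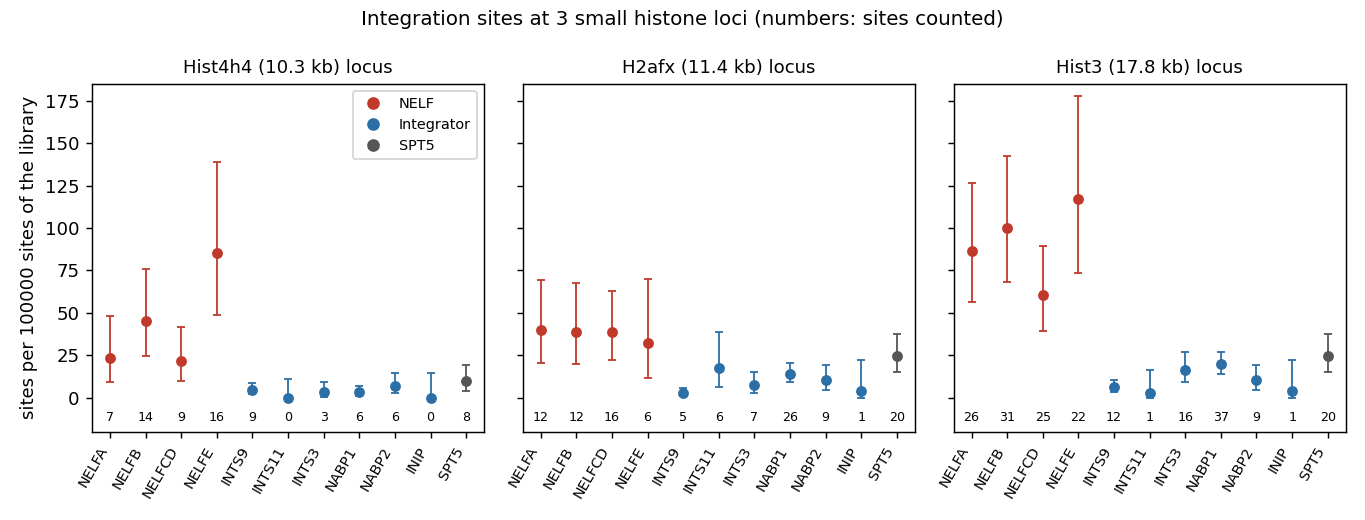
Sites per 100000 sites of the library (y axis) in each of the 11 libraries (x axis) at the Hist4h4, H2afx and Hist3 loci. Points are single libraries, bars are 95% exact Poisson intervals for counting error, and the numbers along the bottom are sites counted; at each locus every NELF point lies above every Integrator point.

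Libraries were also compared in a fit across 11122 windows, each a gene with 5 kb on each side or 1 of the 3 loci, with limma and Benjamini-Hochberg adjustment. NELF was higher in 128 windows (1.15%) and lower in 33 (0.297%), together 1.45%, and all 4 histone genes of the 3 loci were among those higher. Hist3h2ba had a log2 difference of 4.19 ± 0.57 (SE; limma adjusted p = 3.08e-07), with 59.8 sites per 100000 in NELF, 3.23 in Integrator and 10.97 in SPT5. Hist4h4 followed with 3.68 ± 0.61 (adjusted p = 2.84e-05), Hist3h2a with 3.03 ± 0.43 (adjusted p = 9.16e-07) and H2afx with 2.12 ± 0.45 (adjusted p = 0.00236). With a pseudocount of 0.1 in place of 1 Hist4h4 did not pass (adjusted p = 0.0706). The windows of Hist3h2ba and Hist3h2a overlap, share part of their sites and lie in the Hist3 locus. Those of Hist4h4 and H2afx are the same as their loci. For these 4 genes the fit therefore uses the sites compared above and is not separate support.

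Among the replication-dependent genes outside these loci, 57 of 58 tested Hist1 and Hist2 genes were higher in NELF and 0 lower in limma, and 58 and 0 at an unadjusted p under 0.05, where NELF was higher in 702 of all 11122 windows (6.31%) and lower in 755 (6.79%). Of 64 such genes, these 58 had the required mean of at least 2 sites per library. Their median log2 difference was 3.48 (2.24 to 4.35), the median of the 4 genes described here was 3.35 (2.12 to 4.19), and that of all windows was −0.09. H2afx lay just below the lowest Hist1 or Hist2 gene, Hist2h3c1 at 2.24, while the 3 other genes lay within their range. Hist1h2bb, Hist1h3i and Hist1h2be, the genes of this list with the most sites, had log2 differences of 3.57, 3.51 and 3.88. Windows of clustered genes overlap, so they are not separate measurements. The filter took the mean over all libraries, so a gene could pass it mainly through its NELF sites. Hist1h4n, Hist1h2ap and Hist1h2br had means of 17.7, 16.9 and 16.9 sites per 100000 in NELF and 0.805 each in Integrator. Their calls, which count among the 57, are therefore not independent of the filter.

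Variant histone genes with polyadenylated transcripts gave 1 of 9 tested genes higher in NELF and 0 lower, with a median log2 difference of 0.03. At an unadjusted p under 0.05, 4 were higher and 0 lower, beside the 6.31% and 6.79% of all windows. The 1 gene was H2afj, whose window shares 70 of its 77 sites with the Hist4h4 locus. H3f3b and H3f3a, which code for the replacement histone H3.3, had 24.2 ± 15.02 and 7.31 ± 5.51 sites per 100000 in NELF. Integrator had 6.24 ± 5.20 and 7.09 ± 2.71. The log2 differences were 2.21 ± 0.68 and −0.40 ± 0.67 (SE), and neither passed (limma adjusted p = 0.103 and 0.848). H1fx had 1.97 ± 0.59 (limma adjusted p = 0.0762), and the tested genes ranged from −0.40 to 3.58. Some genes that did not pass thus had differences about as large as the 2.12 of H2afx. Of 19 genes for histone pre-mRNA processing and histone gene transcription, 13 were tested and 0 passed in either direction in limma, also at an unadjusted p under 0.05 (median log2 difference −0.02). Srrt, Slbp and Cdk2 had the most sites of that list, and Slbp, which codes for the stem-loop binding protein, had 14.5 ± 10.7 in NELF and 9.79 ± 3.68 in Integrator (adjusted p = 0.951).

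**Figure D2:**
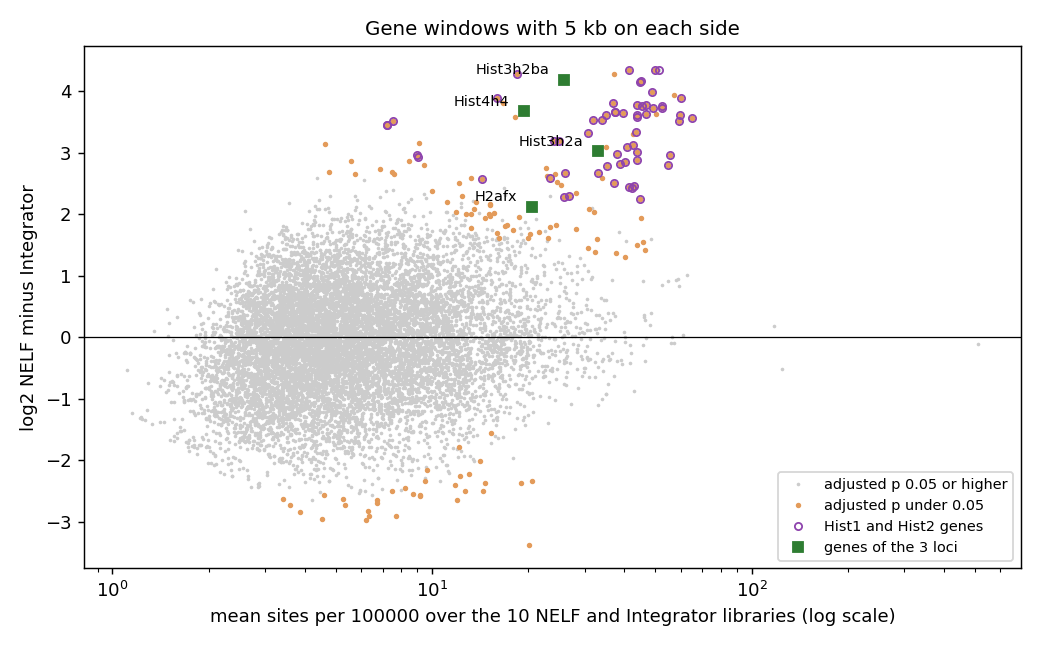
Log2 difference of NELF minus Integrator (y axis) against mean sites per 100000 over the 10 NELF and Integrator libraries (x axis, log scale) for 11122 windows. Green squares are the 4 histone genes of the small loci, open circles Hist1 and Hist2 genes; H2afx, at 2.12, lies at the lower edge of the histone genes, and Hist3h2ba, at 4.19, near the top.

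Sites inside the loci lay around the histone genes in different ways. Of the sites nearest each gene, 78.3% of NELF and 87.5% of Integrator sites at Hist4h4 were within 2 kb of its start, and 67.4% and 59.3% at H2afx. The shares were 90.2% and 77.8% at Hist3h2ba, and 71.4% and 72.4% at Hist3h2a. The stretch of 500 bases with the most NELF sites lay at −786 to −287 bases from the start of Hist4h4 (12 of 46 sites, from 2 libraries) and at −787 to −288 from that of H2afx (12 of 46, from all 4). At the Hist3 locus it lay inside Hist3h2a past the stem-loop, 1263 to 1762 bases from the start (17 of 104, from 3 libraries). Integrator sites were densest elsewhere: 696 to 1195 bases downstream of the Hist4h4 start (6 of 24 sites), −3 to 496 bases from the H2afx start (11 of 54) and 68 to 567 bases after the Hist3h2a start (13 of 76).

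**Figure D3:**
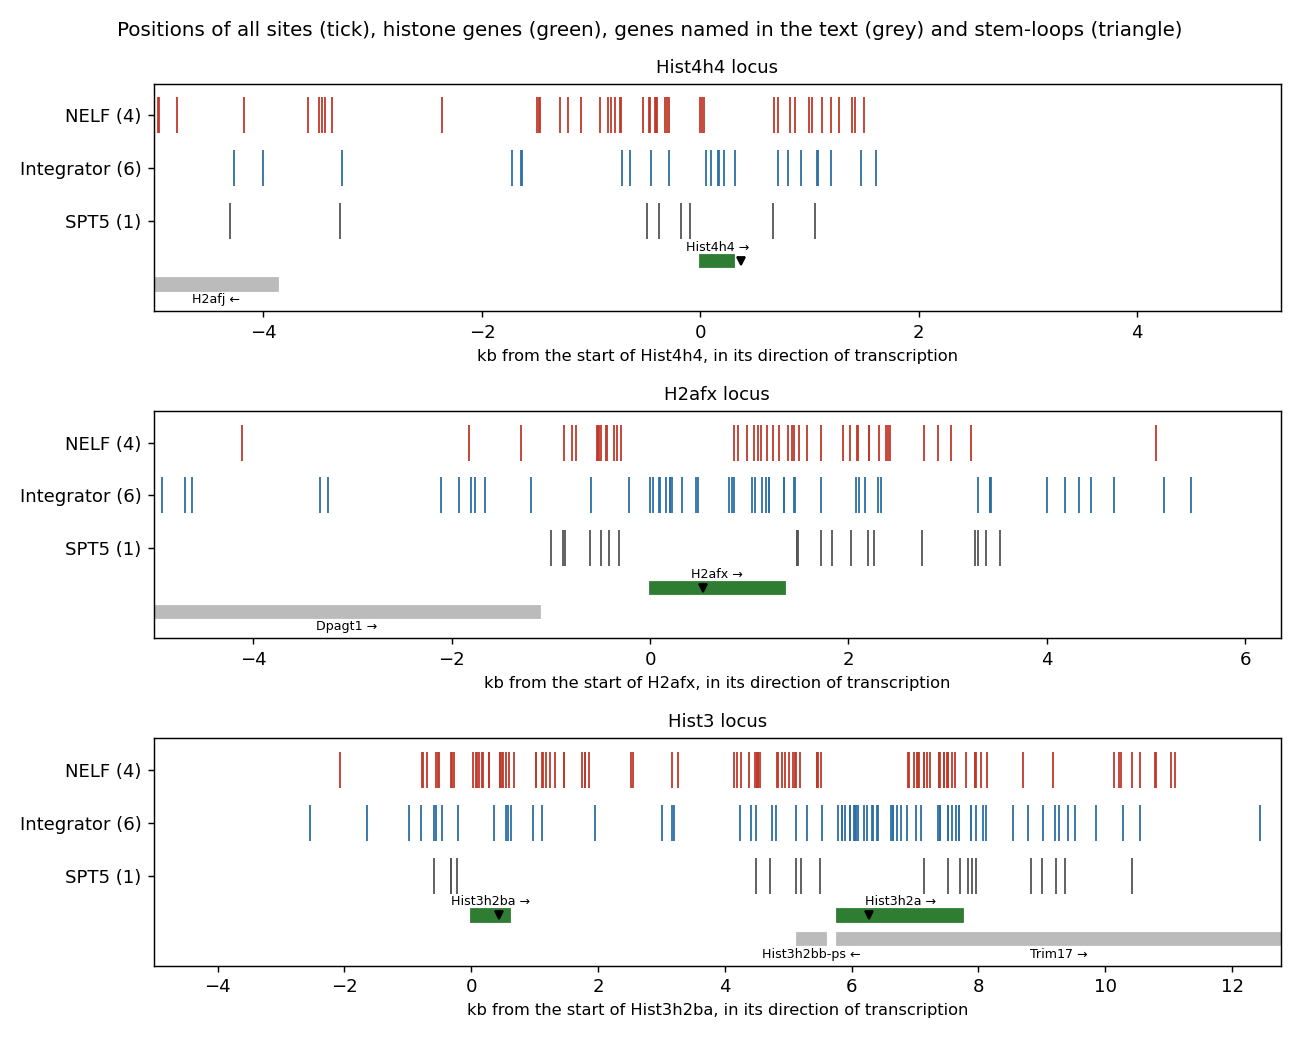
Positions of all sites (ticks) of the 4 NELF, 6 Integrator and 1 SPT5 libraries along the 3 loci, in kb from the start of Hist4h4, H2afx and Hist3h2ba in the direction of transcription (x axis). Green bars are histone genes, grey bars the genes named in the text and triangles stem-loops. The stretch from the start to the stem-loop of H2afx and of Hist3h2a holds Integrator ticks and no NELF or SPT5 tick. Ticks are not scaled to the size of a library.

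From the start to the end of the stem-loop, H2afx and Hist3h2a held 0 NELF and 0 SPT5 sites, while Integrator had 10 sites at H2afx and 12 at Hist3h2a. The 10 at H2afx came from NABP1 (6), INTS11 (2), INTS9 (1) and INTS3 (1). The 12 at Hist3h2a came from NABP1 (8), INTS9 (2), INTS3 (1) and NABP2 (1). Per kb and 100000 sites, Integrator had 3.27 ± 4.33 over these 541 bases of H2afx and 2.46 ± 3.11 over the 503 bases of Hist3h2a. In NELF libraries 1 site is worth 2.42 to 5.33 per 100000 before scaling to kb, and more per kb over these stretches shorter than 1 kb. The 0 sites therefore do not set NELF below Integrator at either gene. Hist4h4 had 2 NELF and 6 Integrator sites in that stretch, and Hist3h2ba had 8 NELF sites and 1 Integrator site, so the pattern was not shared by all 4 genes. In Hist3h2ba the NELF sites came from NELFA (4), NELFCD (3) and NELFE (1). Per kb and 100000 sites, the means from start to stem-loop were 5.08 in NELF and 1.36 in Integrator at Hist4h4, and 14.3 and 0.195 at Hist3h2ba.

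Just past the stem-loop both families had sites. Over the next 1 kb NELF and Integrator had 9 and 6 sites at Hist4h4, 13 and 13 at H2afx, 14 and 5 at Hist3h2ba, and 10 and 12 at Hist3h2a. SPT5 had 2, 3, 0 and 1 sites. Per kb and 100000 sites, the density past the stem-loop at Hist4h4 was 8.56 ± 9.42 in NELF and 0.913 ± 1.28 in Integrator. It was 11.2 ± 7.71 and 2.03 ± 2.06 at H2afx, 13.6 ± 9.36 and 0.438 ± 0.850 at Hist3h2ba, and 6.87 ± 7.95 and 1.88 ± 2.08 at Hist3h2a. In the 1 kb before the start NELF had 16, 13, 9 and 13 sites at Hist4h4, H2afx, Hist3h2ba and Hist3h2a, Integrator 4, 3, 6 and 4, and SPT5 4, 6, 4 and 3. Per kb and 100000 sites, the upstream density at Hist4h4 was 16.5 ± 15.8 in NELF and 0.342 ± 0.616 in Integrator, and that at H2afx 10.04 ± 7.28 and 0.749 ± 1.15. The NELF sites upstream of Hist4h4 were mostly those of NELFE (7) and NELFA (6), and those upstream of H2afx were mostly those of NELFB (6) and NELFCD (5).

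Over the 4 genes together, the stretch from start to stem-loop held 10 of 107 NELF sites in the 3 zones (9.35%; 95% exact binomial interval 4.57 to 16.5) and 29 of 82 Integrator sites (35.4%; 25.1 to 46.7). SPT5 had 0 of 23 there, which allows up to 14.8% at the exact interval's upper end. By library the share was 8.52% ± 6.52 in NELF (SD, n = 4) and 26.7% ± 20.6 in Integrator (n = 6), a difference that did not pass (exact two-sided permutation p = 0.138 over 210 splits). Each library counted equally there, though INTS11 had 2 of 4 sites and INIP 0 of 1, so the test cannot decide. NABP1 gave 18 of the 29 Integrator sites. At the 54 of 56 Hist1 and Hist2 genes with a stem-loop that ended within 1000 bases of the start, the pooled shares were 22.7% in NELF, 23.2% in Integrator and 27.2% in SPT5. Their shares by library averaged 22.8% ± 2.33 in NELF and 20.8% ± 11.8 in Integrator (exact permutation p = 0.676), with INIP at 0 of 5 sites. These zones were chosen after site positions had been seen, and the pooled shares, whose intervals hold counting error only, are a description. Uniqueness of the sequence differs between zones: 51.1% of 32-base words were unique in the genome from start to stem-loop in Hist3h2ba, 78.2% in H2afx, 86.7% in Hist3h2a and 99.7% in Hist4h4, and 80.1% to 100% in the outer zones. Its part in the counts was not tested.

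Few upstream NELF sites lay in the 250 bases next to the start. Of 51 NELF sites in the 1 kb upstream of the 4 genes, 1 lay in those 250 bases, at Hist4h4, and 50 lay 251 to 1000 bases away, with 15, 13, 9 and 13 at Hist4h4, H2afx, Hist3h2ba and Hist3h2a. Integrator had 4 sites in the near part and 13 in the far part, and SPT5 had 3 and 14. All 32-base words of the near part were unique, against 86.0% in the far part. This split, too, was chosen after the positions had been seen and was not tested.

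**Figure D4:**
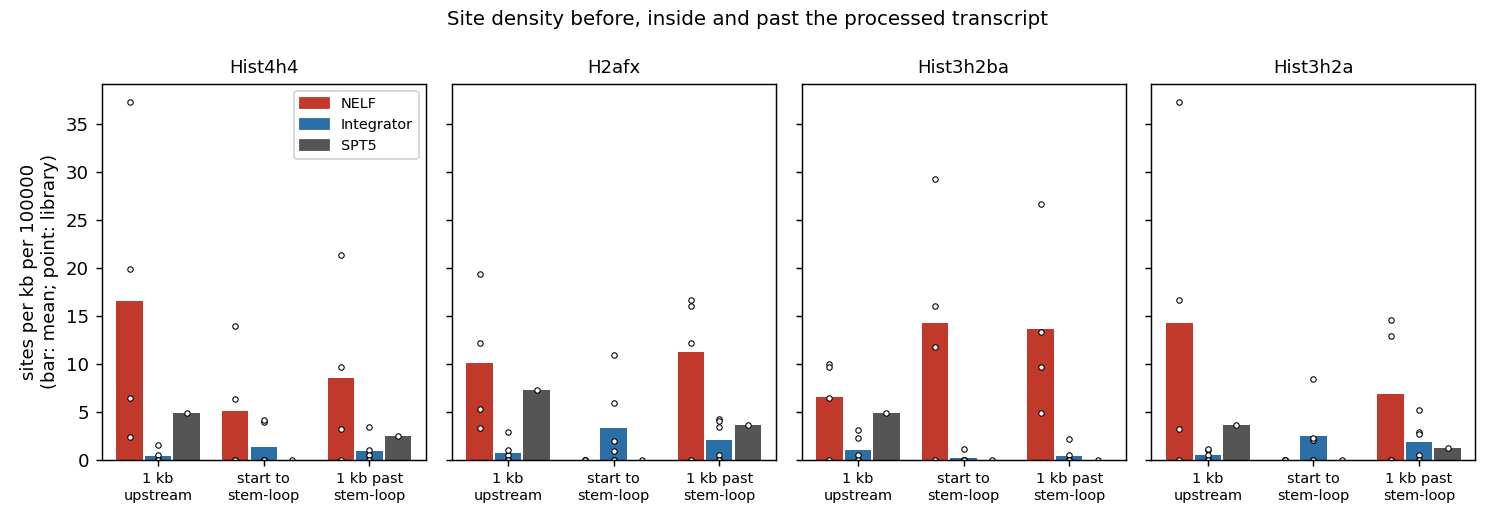
Sites per kb per 100000 sites (y axis) in the 1 kb upstream of the start, from the start to the end of the stem-loop and in the 1 kb past the stem-loop, for the 4 histone genes. Bars are means over the 4 NELF and 6 Integrator libraries or the value of SPT5, and points are libraries; between start and stem-loop the NELF bar is 0 at H2afx and Hist3h2a.

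The histone genes share their windows with other genes. Of the sites at the H2afx locus, H2afx itself held 9 NELF, 21 Integrator and 0 SPT5 sites. Per kb and 100000 sites, the mean in H2afx was 5.92 in NELF and 2.59 in Integrator. Upstream of H2afx lies Dpagt1, which codes for the enzyme that starts N-glycan precursors. The Dpagt1 body held 3 NELF, 11 Integrator and 0 SPT5 sites of the locus. Its mean density there was 0.635 in NELF and 0.507 in Integrator. Farther out the Dpagt1 window held another 74 sites, at 32.1 per 100000 in NELF, 3.25 in Integrator and 13.4 in SPT5, so NELF sites were frequent on that side beyond the locus. As a window with 5 kb on each side, Dpagt1 was higher in NELF by 2.60 ± 0.39 on the log2 scale (limma adjusted p = 3.91e-06). Of the 186 sites of this window, 112 lay in the H2afx locus, so the call is not separate from that of the locus.

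At the Hist3 locus Trim17, which codes for a ubiquitin ligase and shares its annotated start with Hist3h2a, held 17 NELF, 16 Integrator and 8 SPT5 sites beyond the histone gene. The pseudogene Hist3h2bb-ps held 5, 2 and 2. Per kb and 100000 sites, the pseudogene had a mean of 12.1 in NELF and 0.364 in Integrator. All of Trim17 in the locus, with Hist3h2a included, had 4.48 and 0.957. Trim17 was higher in NELF by 3.09 ± 0.43 (limma adjusted p = 4.14e-07), and 159 of the 169 sites of its window lay in the Hist3 locus. At the Hist4h4 locus most sites were in no annotated gene, at 40 of 46 NELF, 17 of 24 Integrator and 7 of 8 SPT5 sites, and H2afj, the gene of the variant H2A.J, held 4, 2 and 1.

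Within libraries, the Hist4h4 locus had fewer sites per kb than the Hist3 locus in 8 of 11. The log2 ratio of densities, with a pseudocount of 0.05 sites per kb per 100000, averaged −0.87 ± 0.98 (SD, n = 11; exact two-sided sign-flip permutation p = 0.0146 over 2048 patterns). NELFE had 8.27 sites per kb per 100000 at Hist4h4 against 6.60 at Hist3, and INTS9 and NABP2 were also higher at Hist4h4, while NELFA had 2.25 against 4.86 and NABP1 0.309 against 1.11. The call rests on thin libraries: without INTS11 and INIP, each with 0 sites at Hist4h4 and 1 at Hist3, the mean was −0.55 (exact permutation p = 0.0586), and with 1 kb in place of 5 kb around the genes it was −0.43 (exact permutation p = 0.332). With sites of the GAIIx instruments alone, which leave out SPT5 and part of INTS9, NABP1 and NABP2, it was −0.18 (exact permutation p = 0.799). NELF (−0.45) and Integrator (−1.21) did not differ in this ratio beyond the spread (difference 0.75 ± 0.57, SE; exact permutation p = 0.267).

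H2afx and Hist3 did not differ in density beyond the spread between libraries. The H2afx locus was denser in 6 of 11 libraries, with a mean log2 ratio of 0.12 ± 1.10 (SD, n = 11; exact permutation p = 0.759). NELFE lay lowest, with 2.82 sites per kb per 100000 at H2afx against 6.60 at Hist3, and INTS11 highest, with 1.56 against 0.166 from 6 sites and 1 site. SPT5 had 2.15 against 1.37. The mean log2 ratio was −0.60 in NELF and 0.52 in Integrator (difference −1.12 ± 0.57, SE; exact permutation p = 0.105), which did not pass. Without INTS11 the mean over all libraries was −0.15 (exact permutation p = 0.504). H2afx against Hist4h4 gave 0.99 ± 1.82 (exact permutation p = 0.0928). No p here was adjusted over the 3 pairs.

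**Figure D5:**
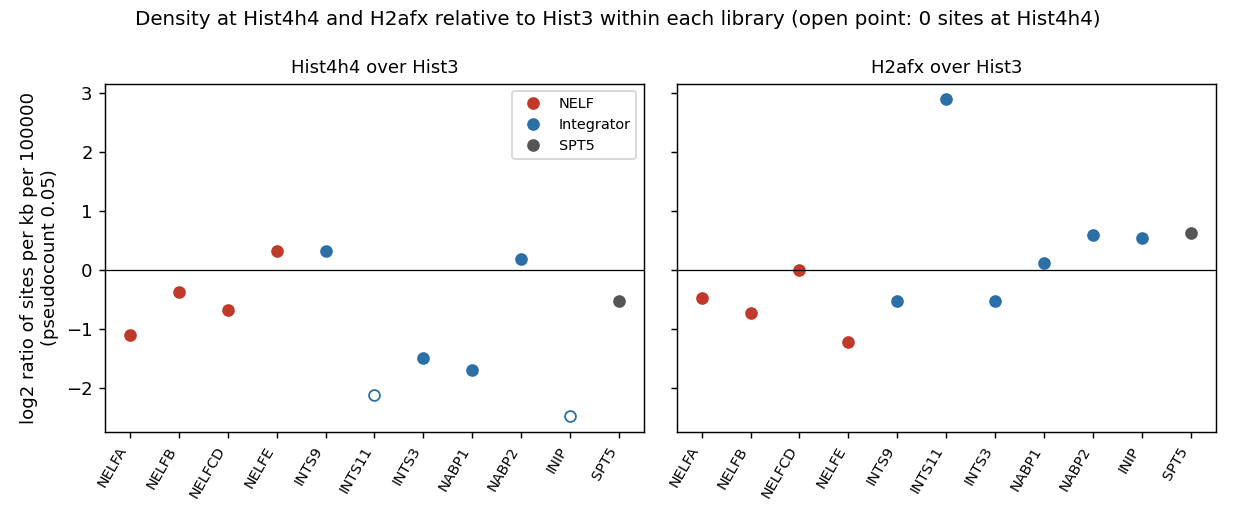
Log2 ratio of site density at Hist4h4 (left) and at H2afx (right) to that at Hist3 (y axis, sites per kb per 100000, pseudocount 0.05) in each of the 11 libraries (x axis). Open points are INTS11 and INIP, with 0 sites at Hist4h4; 3 of 11 points lie above 0 on the left and 6 of 11 on the right.

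Some sites had the same position and strand in 2 libraries. They made up 14 of 384 distinct positions (3.65%), 1 at Hist4h4, 3 at H2afx and 10 at Hist3, against 0.638% of 826194 positions in all libraries. Denser sites coincide more often whatever their source, and the part of density or of repeated sequence in this share was not tested. Of the 14, 4 were shared by 2 NELF libraries, and the mm9 sequence of 3 of them is shown to give the target, in the direction from the viral end into the genome, with the first base past the virus in capitals and the bases that lay before it to its left. They are chr9:44142277 on the plus strand (NELFB and NELFCD), chr11:58767872 on the plus strand (NELFB and NELFE) and chr11:58770360 on the plus strand (NELFA and NELFCD).
H2afx upstream: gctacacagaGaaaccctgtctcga
Hist3h2bb-ps: ctgcgccttgGtgaccgcctttttg
Trim17 past Hist3h2a: tatcagtcatGaaacctaaaaggta
Of the positions without a pair of NELF libraries, 8 joined a NELF library with an Integrator library or SPT5 and 2 held no NELF library, and 2 was the most libraries at 1 position. Leaving out all shared positions changed none of the calls at the 3 loci. Sites fell on both strands, with 199 of 398 on the plus strand (50%; 95% exact binomial interval 44.98 to 55.02), 104 of 196 in NELF, 70 of 154 in Integrator and 25 of 48 in SPT5.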

How the data were processed

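The labels' protocols describe linker-mediated PCR in nested rounds from the viral LTR into flanking DNA, then paired-end reads on a GAIIx (70 bases) or HiSeq (100 bases). Mapping was to mm9, per the submitters' processing notes; the aligner and read filters were not given in the sources used here. What was deposited is neither a count nor another measure: an entry, per the file headers, gives the 0-based position where genomic DNA begins after the LTR, with its strand. PCR copies and different linker ends repeat a position, so entries were collapsed to distinct sites per library, given as 1-based mm9 positions. Read names gave instrument and flow cell. They carry 2 further numbers that the headers leave unexplained, of which the first, at least 2 in every entry, was used in 1 alternative.

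Families follow the known complexes, not the labels. Loci were compared by exact permutation tests with a pseudocount of 1 site per 100000, density ratios with one of 0.05 sites per kb per 100000. Gene windows (all genes that are not pseudogenes with 5 kb on each side, and the 3 loci, averaging 2 or more sites over the 11 libraries) were fitted with limma 3.58.1 (trend and robust settings; R 4.3.3) on log2 of sites per 100000 plus 1, adjusted by Benjamini-Hochberg over 11122 windows and called at 0.05. The fit was also run on simulated counts with the same scatter setting in every library and no difference between flow cells. That run says nothing about differences between flow cells in the real data. Genes came from an annotation of the mm9 assembly, promoters from RefSeq (GRCm38.p6), matched by symbol or synonym for 3 of 4 histone genes. Named genes were the histone genes and other annotated genes of the windows and, per list, the 3 with the most sites. Members, loci and lists were chosen with earlier results of these data known. Alternatives covered entries, merged or shared sites, pseudocounts, windows, flanks, scaling, filters and left-out libraries. Results for 1 item are not reported here.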

Additional observations from a re-analysis of the deposited data

Results flagged for a closer look

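1 value stood apart from the others of its group: NELFE at the H2afx locus, with 31.99 sites per 100000 from 6 sites, lay below NELFA, NELFB and NELFCD, which had 39.9, 38.8 and 38.8. The gap to the nearest of them was 0.861 of the range of the 4 values, and the 95% exact Poisson interval of NELFE, 11.7 to 69.6, covers the other 3. Chance flags about 1 in 20 groups, and 6 groups were examined.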

How the results depend on the processing

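The Hist4h4 and Hist3 loci were higher in NELF and passed under all 22 alternatives, with log2 differences of 2.51 to 4.94 and 1.59 to 4.31. The H2afx locus passed under 20 of 21, and not when divided by the density of the 50 kb flanks (0.996). Leaving out 1 library gave 3.29 to 3.95 at Hist4h4, 1.86 to 2.34 at H2afx and 3.06 to 3.53 at Hist3. For Hist4h4 over Hist3 within libraries the call was lost with 1 kb around the genes (−0.43), with GAIIx sites alone (−0.18) and without INTS11 and INIP (−0.55), the last 2 chosen after seeing the data, while leaving out 1 library gave −0.99 to −0.71. Its NELF minus Integrator difference turned to −0.46 (exact permutation p = 0.743) with GAIIx sites alone. For H2afx over Hist3 leaving out 1 library gave −0.15 to 0.26, where the sign turned without INTS11 (−0.15); it also turned without INTS11 and INIP (−0.23). Windows higher in NELF numbered 56 with a pseudocount of 0.1 and 86 to 180 without 1 library. Windows lower in NELF numbered 1 with that pseudocount, 6 with a mean of at least 10 sites, 19 with no filter but 1 site, and 7 to 38 without 1 library, with 19, 17, 21 and 7 without INTS3, INTS9, NABP1 and NABP2. The pseudocount of 0.1 moved the median of all windows to −0.28, and Hist4h4 and H2afj then did not pass (adjusted p = 0.0706 and 0.09). The causes of these changes were not tested. NELF libraries could not be paired with Integrator libraries, because each protein had 1 library and the labels give no replicate numbers. Few sites limit single libraries: 1 site is worth 0.507 per 100000 in INTS9 and 5.33 in NELFE.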
